A study of Mus musculus with 3 samples.

Results

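The genes described here encode the chains of integrins and laminins, 36 of the 22180 genes named on the arrays, read by 37 of 41345 probe sets. They were taken by gene symbol: 17 integrin alpha chains, 9 integrin beta chains and 10 laminin chains, each with 1 probe set except Itgav with 2. Symbols of integrin-binding proteins were left out, among them Itgb3bp, whose letters match but whose product is not a chain. Itga10 was not analysed here. The values came from 3 mouse arrays, 1 for each group. FULA 1 is a mouse lung adenocarcinoma line, grown in culture. The urethane lung is lung of the inbred FVB strain taken 1 week after intraperitoneal injection of urethane, a carcinogen that gives lung adenomas in mice. The saline lung is FVB lung after an injection of saline. The age and number of mice, the time of the saline lung and the origin of the line beyond its tumour type were not stated in the labels. With 1 array for each group there was no replicate spread and no test, and each difference is one between arrays.

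Integrins are cell surface receptors made of 1 alpha and 1 beta chain, which tie the matrix outside the cell to the actin or keratin filaments inside it. Laminins are trimers of an alpha, a beta and a gamma chain, and they build the sheet of basement membrane on which epithelial and endothelial cells sit. The alpha chain of an integrin largely decides what it binds: collagen, laminin, proteins with an RGD motif (arginine, glycine, aspartate) such as fibronectin, or counter-receptors on other cells. In the lung, laminin-binding integrins anchor airway and alveolar epithelium, and the beta 2 family is confined to leukocytes.

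The deposited columns did not share one scale, so arrays were quantile-normalized, which gives every array the same set of log2 values. Beside the normalized value stands the percentile rank, the position of a gene among all probe sets of its own array, which no monotone rescaling alters. A gene was called higher or lower at a difference of 2-fold or more (1 on the log2 scale) when the larger value was at or above 2.37, the median of all gene values. Olfactory receptor genes, 1105 in number, gave a mark of background, their 95th percentile on each array: 1.96 on FULA 1, 2.44 on urethane lung and 2.46 on saline lung. Of the 36 chains, 23 lay above that mark on FULA 1, 26 on urethane lung and 22 on saline lung. For all named genes the shares above it were 58.2% on FULA 1, 48.9% on urethane lung and 49.5% on saline lung. Where the smaller value of a pair lay below the mark, "at least" gives the difference with the mark in its place. On the urethane array 4 chains, Itga6, Itgb7, Lama3 and Lama4, held the one deposited value 1.79, shared with 559 probe sets in all, so their urethane values are coarse.

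The labels were set against marker genes. FULA 1 had Krt8 and Krt18, the keratin pair of simple epithelium, at normalized values of 10.27 and 6.42, against 5.60 and 3.81 on urethane lung and 5.43 and 3.53 on saline lung. Epcam, an epithelial adhesion molecule, stood at 3.31 on FULA 1, 4.59 on urethane lung and 3.82 on saline lung. The epithelial list differed in direction. Of its 8 measured markers, 4 were called higher and 1 lower for FULA 1 against saline lung. Against urethane lung these counts were 3 and 2. Of all named genes, 13.9% were called higher and 13.5% lower against saline lung, and 13.2% and 11.6% against urethane lung. Cldn7, another marker of the list, was the lower one against saline lung, at -2.23. The lower pair against urethane lung was Cldn7, at -1.90, and Epcam, at -1.28. Sftpc, Ager and Scgb1a1, markers of alveolar type II, alveolar type I and club cells, had percentile ranks of 53.5, 68.3 and 20.3 on FULA 1 and of 98.8 to 99.9 on the lungs. A single cultured line stands against whole tissue, so cell makeup, culture and tumour state cannot be told apart in either FULA 1 comparison. Fewer cells of a type and less RNA per cell cannot be told apart in the lungs.

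FULA 1 cells were higher than the saline lung in 12 of the 36 chains (33.3%) and lower in 5 (13.9%), with 25 chains past the floor. Of all 22180 named genes, 13.9% were higher and 13.5% lower by the same rule, and of the 13590 genes past the floor 22.6% were higher and 22.0% lower. The median difference of the 36 chains was 0.17 (log2, FULA 1 minus saline), against -0.11 for all named genes. Against the urethane lung 9 chains (25.0%) were higher and 8 (22.2%) lower, with 28 past the floor. The shares of all named genes were 13.2% and 11.6% there, those of the genes past the floor 22.1% and 19.5%, and the median of the chains was -0.13, against -0.08. The lower count against the saline lung thus lies at the background, and the higher count lies above it. Against the urethane lung both counts lie above the shares of all named genes. The comparisons share the FULA 1 array. The higher chains in both were Itga2, Itga3, Itga6, Itgav, Itgb1, Lama5, Lamb1, Lamb3 and Lamc1, and the lower chains in both were Itga8, Itgal and Lama2. That is 9 and 3 of the 36 chains, where 10.9% of all named genes were higher and 9.25% lower than in both lungs, so the lower set does not exceed the background.

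**Figure D1:**
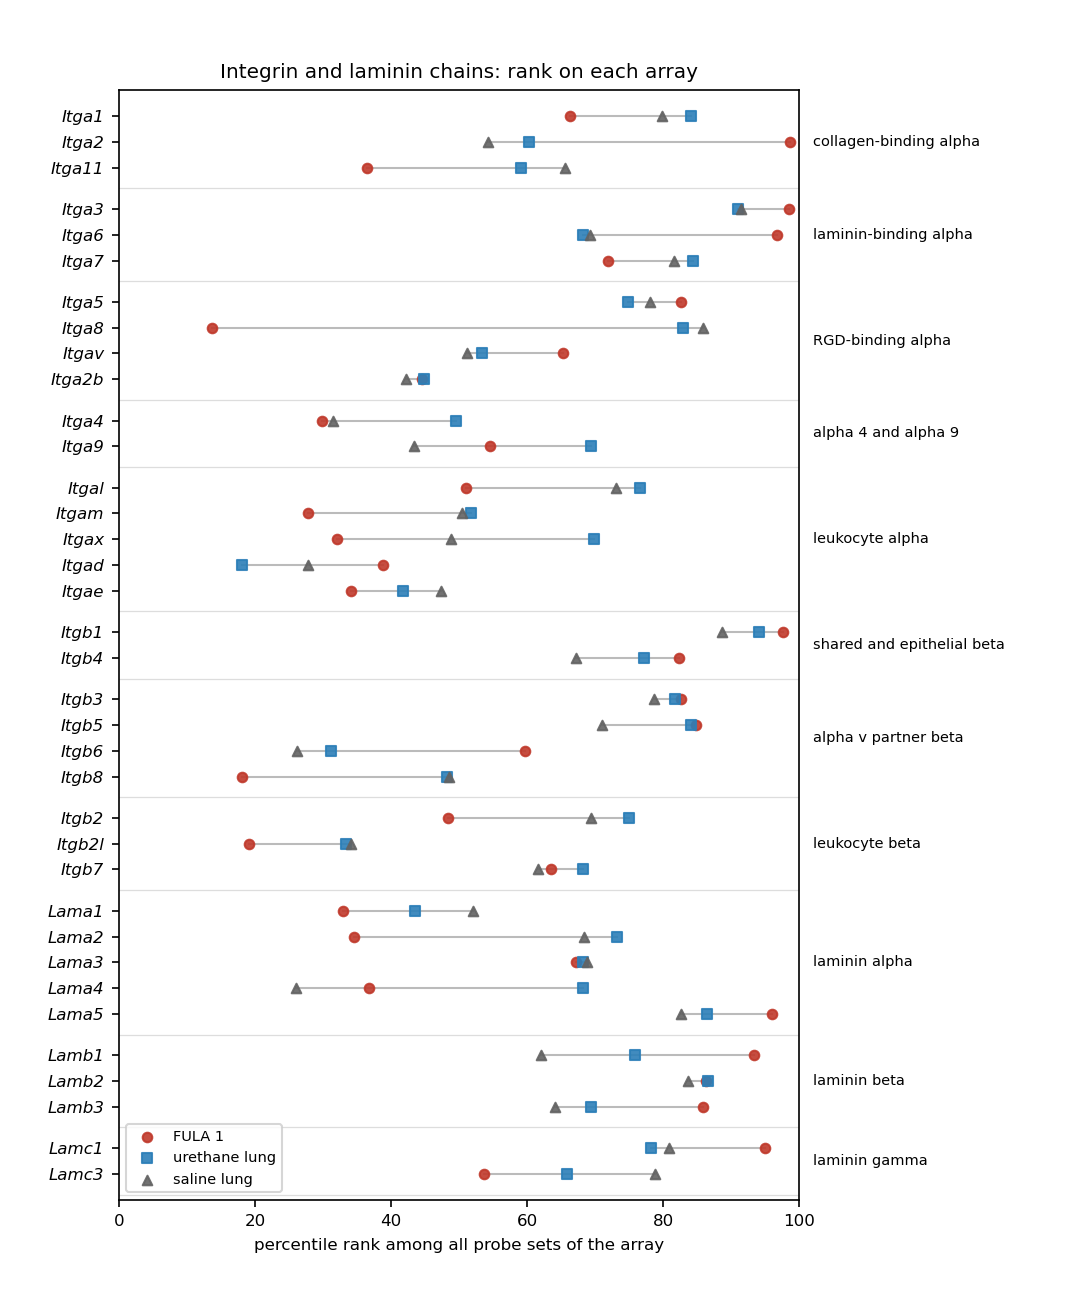
Percentile rank (x axis, 0 to 100, among 41345 probe sets of the array) of each of the 36 chains on FULA 1 (circles), urethane lung (squares) and saline lung (triangles), ordered by role, with a line over the range of the 3 arrays. Itga2 and Itga6 lie far to the right on FULA 1, at 98.6 and 96.7, and Itga8 far to the left, at 13.7.

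Among the collagen-binding alpha chains, Itga2 was higher in FULA 1 than in both lungs. Itga2 encodes the alpha 2 chain, which with beta 1 forms a collagen and laminin receptor of epithelial cells and platelets. Its percentile rank was 98.6 on FULA 1, 60.3 on urethane lung and 54.3 on saline lung. The normalized values were 7.90 on FULA 1, 2.50 on urethane lung and 2.24 on saline lung, the last of them below the background mark. The line was higher by at least 5.44 (log2) than the saline lung and by 5.41 than the urethane lung. Over the other scalings these differences ran from 4.51 to 6.27 against the saline lung, and from 4.25 to 6.06 against the urethane lung. Itga1, the alpha 1 chain of a collagen receptor of mesenchymal and endothelial cells, had ranks of 66.3 on FULA 1, 84.1 on urethane lung and 79.8 on saline lung. It was lower by 1.33 in the line than in the urethane lung and differed by -0.93 from the saline lung. When the arrays were only median-shifted these became -0.35, which ends the call, and 0.11. Itga11, a collagen receptor chain of fibroblasts, was at least 0.79 lower in the line than in saline lung and lay below the mark on both FULA 1 and the urethane lung.

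Itga2 and Itga1 are neighbours on chromosome 13 with 0 protein-coding genes between them in the RefSeq gene table. Their promoter windows are shown because the genes lie side by side and only Itga2 was called higher in FULA 1. Each window runs from 250 bases before to 50 bases after the gene start in RefSeq (build GRCm38.p6), 5′ to 3′ on the gene's strand. Capitals mark GC boxes (GGGCGG on either strand, so also CCGCCC) and AP-1 motifs (TGANTCA, which reads the same on both strands); by their letters these motifs cannot overlap. Itga2 lies at chr13:114932051-114932350 and Itga1 at chr13:115101915-115102214, both on the minus strand.
Itga2: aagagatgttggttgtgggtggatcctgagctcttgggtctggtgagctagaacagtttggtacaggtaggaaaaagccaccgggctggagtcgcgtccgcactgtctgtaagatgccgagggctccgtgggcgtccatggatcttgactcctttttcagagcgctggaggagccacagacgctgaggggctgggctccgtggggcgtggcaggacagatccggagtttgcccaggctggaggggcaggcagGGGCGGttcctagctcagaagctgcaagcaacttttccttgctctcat
Itga1: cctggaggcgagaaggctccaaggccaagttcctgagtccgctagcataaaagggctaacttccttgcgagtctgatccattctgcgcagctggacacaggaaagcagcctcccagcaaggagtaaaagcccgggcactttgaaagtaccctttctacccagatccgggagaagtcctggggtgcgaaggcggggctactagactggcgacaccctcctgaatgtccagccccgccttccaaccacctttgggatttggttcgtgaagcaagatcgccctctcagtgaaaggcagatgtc
The Itga2 window holds 1 GC box close to the gene start and 13 CpG dinucleotides, and the Itga1 window 0 GC boxes and 12 CpG dinucleotides. Neither has an AP-1 motif. A GC box occurs in 35.7% of 32851 such windows in the genome and an AP-1 motif in 7.81%.

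The laminin-binding alpha chains Itga3 and Itga6 were higher in FULA 1 than in either lung. Itga3 encodes the alpha 3 chain, the partner of beta 1 in the main laminin receptor of lung epithelium. It stood at 7.83 on FULA 1, 5.08 on urethane lung and 5.16 on saline lung, and at ranks of 98.5, 90.9 and 91.4 on those arrays. The difference was 2.75 from the urethane lung and 2.66 from the saline lung, while the urethane and saline lungs differed by -0.08. Itga6 encodes the alpha 6 chain, which pairs with beta 1, or with beta 4 in hemidesmosomes. Its values were 6.64 on FULA 1, 2.89 on urethane lung and 2.95 on saline lung, a difference of 3.75 from the urethane lung and 3.69 from the saline lung. Over the other scalings Itga6 stayed at 3.08 or more in both comparisons and Itga3 at 2.08 or more. Itga7, the alpha 7 chain of muscle, was at 3.12 on FULA 1, 4.16 on urethane lung and 3.88 on saline lung. It was lower by 1.04 in FULA 1 than in the urethane lung, a direction that turned to 0.12 with median-shifted arrays.

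Of the beta chains that serve these receptors, Itgb1 was higher in FULA 1 than in both lungs. Itgb1 encodes beta 1, which pairs with most of the alpha chains here. Its normalized values were 7.07 on FULA 1, 5.77 on urethane lung and 4.70 on saline lung, with ranks of 97.6, 94.0 and 88.6. The difference was 1.30 from the urethane lung and 2.38 from the saline lung, and the lower of these became 0.96 after a lowess curve was subtracted. Itgb4, the beta 4 chain, which joins alpha 6 to keratin filaments, had values of 3.94 on FULA 1, 3.49 on urethane lung and 2.85 on saline lung. Against the saline lung it was higher by 1.09, or 0.67 after lowess, and against the urethane lung it differed by 0.45, short of the threshold.

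The RGD-binding alpha chains held the largest lower difference. Itga8 encodes the alpha 8 chain, which pairs with beta 1, is carried by fibroblasts and smooth muscle of the lung wall, and binds nephronectin. Its rank was 13.7 on FULA 1, 82.9 on urethane lung and 85.8 on saline lung, and its normalized value 1.05 on FULA 1, 4.01 on urethane lung and 4.32 on saline lung. The FULA 1 value lay below the mark, so the line was lower by at least 2.05 than the urethane lung and by at least 2.35 than the saline lung. Markers of fibroblasts and smooth muscle were lower too, 9 of 10 against the urethane lung and 8 of 10 against the saline lung. Of all named genes, 11.6% were lower against the urethane lung and 13.5% against the saline lung. The summed linear level of the 10 markers was 53.7 on FULA 1, 464 on urethane lung and 469 on saline lung. On FULA 1, 5 of the 10 lay below the mark: Col1a2, Dcn, Lum, Tagln and Cnn1. The part of these cells in the Itga8 difference was not tested.

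Itgav encodes the alpha v chain, which pairs with beta 1, 3, 5, 6 and 8 and includes receptors that activate latent TGF-beta. Its mean value was 3.87 on FULA 1, 2.69 on urethane lung and 2.46 on saline lung, higher in FULA 1 by 1.18 than in the urethane lung and by 1.40 than in the saline lung. The means hide a split between its probe sets. The brighter one stood at 6.07 on FULA 1, 4.03 on urethane lung and 3.56 on saline lung, with differences of 2.04 and 2.51. The dimmer one lay below the mark on all 3 arrays, at 1.66 on FULA 1, 1.35 on urethane lung and 1.37 on saline lung. Itga5, the fibronectin receptor chain alpha 5, differed by 0.66 from the urethane lung and by 0.42 from the saline lung, neither past the threshold. Fn1, its ligand fibronectin, stood at 9.11 on FULA 1, 5.18 on urethane lung and 5.41 on saline lung. Itga2b, the alpha IIb chain of platelets, lay below the mark on every array.

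Of the beta partners of alpha v other than beta 1, Itgb5 and Itgb6 were called higher in FULA 1 than in saline lung, and none of the 4 was called against the urethane lung. Itgb5 stood at 4.21 on FULA 1, 4.12 on urethane lung and 3.06 on saline lung, so that FULA 1 and the urethane lung lay 0.09 apart and the saline lung lay below both. Its difference from the saline lung was 1.15, or 0.74 after lowess. Itgb6, the beta 6 chain of epithelium, stood at 2.47 on FULA 1, 1.57 on urethane lung and 1.43 on saline lung. It was called higher against the saline lung at 1.04, but the lower bound, taken at the background mark of that lung, was 0.0069. Itgb3 differed by 0.10 from the urethane lung and 0.37 from the saline lung, or 1.52 and 1.88 with median-shifted arrays. Itgb8 lay below the mark on all 3 arrays, with ranks of 18.1 on FULA 1, 48.2 on urethane lung and 48.6 on saline lung.

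**Figure D2:**
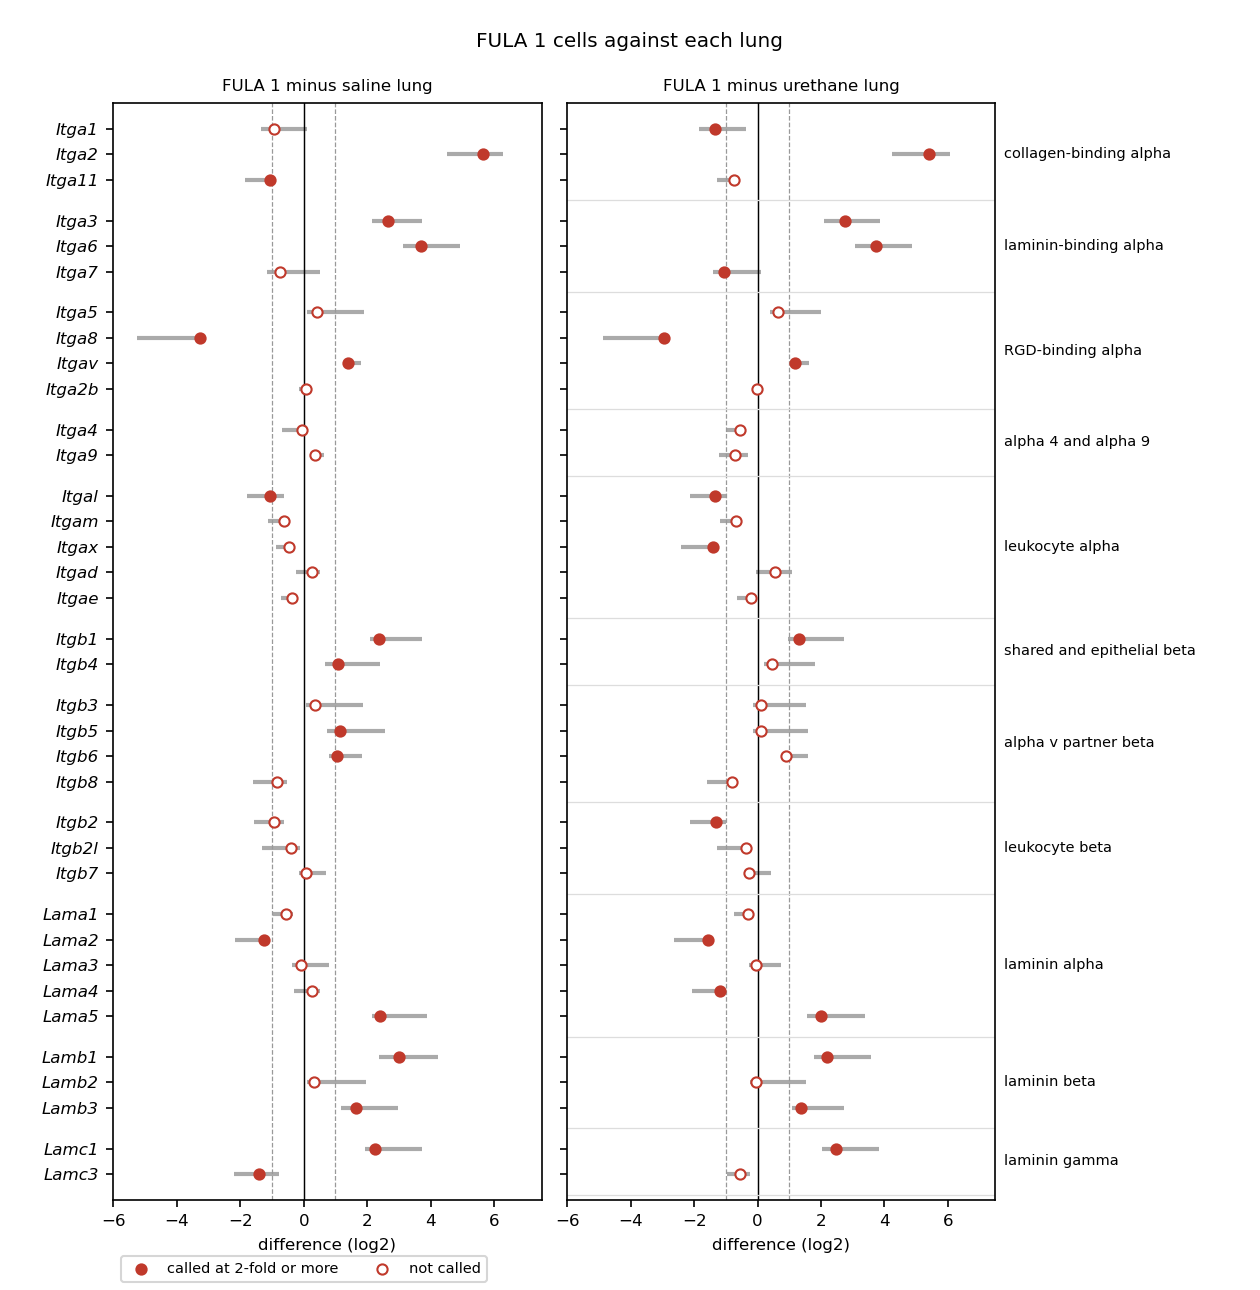
Difference of each chain (x axis, log2) for FULA 1 minus saline lung (left) and FULA 1 minus urethane lung (right), with filled points called at 2-fold or more, open points not called, dashed lines at 2-fold, and grey bars over quantile normalization to either target, the common-median shift and lowess. The bars of Itga2, Itga3, Itga6, Itgav, Lama5, Lamb1, Lamb3 and Lamc1 stay right of the 2-fold line in both panels, and those of Itga8 and Lama2 left of it.

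Alpha 4 and alpha 9, which bind VCAM-1 and other counter-receptors, were not called in FULA 1 against either lung. Itga4 lay below the mark on every array. Itga9, carried by smooth muscle and lymphatic endothelium among others, was at 2.25 on FULA 1, 2.96 on urethane lung and 1.90 on saline lung, the last below the mark.

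Of the 8 leukocyte chains, 0 were higher in FULA 1 in either comparison. Itgal, Itgax and Itgb2 were lower than in the urethane lung, and Itgal was lower than in the saline lung. Of all named genes, 13.2% were higher and 11.6% lower in FULA 1 than in the urethane lung. Against the saline lung the shares were 13.9% and 13.5%, which the count of 1 lower chain does not exceed. With only 8 chains, 0 higher also lies near these shares. Itgal encodes the alpha L chain of LFA-1, the T cell adhesion receptor. Its ranks were 51.1 on FULA 1, 76.6 on urethane lung and 73.1 on saline lung, a difference of -1.34 from the urethane lung and -1.07 from the saline lung. With median-shifted arrays neither was called, at -0.96 and -0.62. Itgb2, the beta 2 chain shared by Itgal, Itgam, Itgax and Itgad, stood at 2.03 on FULA 1, 3.34 on urethane lung and 2.95 on saline lung. It was lower by 1.31 than in the urethane lung, or 0.99 and not called with median-shifted arrays, and differed by -0.93 from the saline lung. Itgax, the alpha X chain (CD11c) of dendritic cells and alveolar macrophages, was at 1.59 on FULA 1, 2.98 on urethane lung and 2.05 on saline lung, only the urethane value lying above the mark, so that FULA 1 was lower by at least 1.02 than the urethane lung. Itgb7, the partner of alpha 4 and alpha E, stood at 2.64 on FULA 1, 2.89 on urethane lung and 2.56 on saline lung and was not called. Itgam, Itgad, Itgae and Itgb2l lay below the mark on all 3 arrays. Itgam, Itgax and Itgad follow one another on chromosome 7 with 0 protein-coding genes between them. Of 12 measured leukocyte markers, 9 were lower in FULA 1 than in each lung, and their summed linear level was 51.4 on FULA 1, 341 on urethane lung and 419 on saline lung. On FULA 1, 9 of the 12 lay below the mark, Ptprc (CD45) among them at 1.62, against 3.35 on urethane lung and 3.06 on saline lung. The part of leukocytes in these differences was not tested.

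The laminin chains differed in direction. Higher in FULA 1 than in both lungs were Lama5, Lamb1 and Lamc1, the alpha 5, beta 1 and gamma 1 chains of the main laminin of adult epithelial basement membrane, and Lamb3, the beta 3 chain of the laminin that anchors hemidesmosomes. Lama5 stood at 6.40 on FULA 1, 4.41 on urethane lung and 3.98 on saline lung, with differences of 1.99 from the urethane lung and 2.42 from the saline lung. Lamb1 stood at 5.59 on FULA 1, 3.40 on urethane lung and 2.58 on saline lung, with differences of 2.19 and 3.01. Lamc1 stood at 6.05 on FULA 1, 3.57 on urethane lung and 3.80 on saline lung, with differences of 2.47 and 2.25. The FULA 1 ranks ran from 93.4 for Lamb1 to 96.1 for Lama5, and the highest lung rank among these chains was 86.4.

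Lamb3 had values of 4.33 on FULA 1, 2.96 on urethane lung and 2.67 on saline lung, higher in FULA 1 by 1.37 than in the urethane lung and by 1.66 than in the saline lung. Its partner Lama3, the alpha 3 chain, stood at 2.85 on FULA 1, 2.89 on urethane lung and 2.92 on saline lung, so that the arrays lay within 0.07 of one another after quantile normalization. With median-shifted arrays Lama3 differed by 0.73 from the urethane lung and 0.79 from the saline lung.

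Lama2, Lama4 and Lamc3 lay on the other side. Lama2 encodes the alpha 2 chain of muscle and nerve basement membrane, and stood at 1.64 on FULA 1, 3.21 on urethane lung and 2.90 on saline lung. The line was lower by at least 1.24 than in the urethane lung and by at least 0.94 than in the saline lung. Lama4, the alpha 4 chain of endothelial and other mesenchymal basement membranes, was at 1.70 on FULA 1, 2.89 on urethane lung and 1.42 on saline lung, with FULA 1 and the saline lung below the mark. The line was lower by at least 0.93 than the urethane lung. After quantile normalization all 8 endothelial markers were lower in FULA 1 than in the urethane lung and 7 of 8 than in the saline lung. The shares of all named genes called lower were 11.6% and 13.5%. The summed linear level of the endothelial markers was 32.2 on FULA 1, 561 on urethane lung and 707 on saline lung. As deposited, their median difference was 0.09 from the urethane lung and 0.72 from the saline lung. On FULA 1, Tek, Tie1, Emcn and Cldn5 lay below the mark. The part of endothelium in the Lama4 difference was not tested. Lamc3, the gamma 3 chain, was lower by 1.40 than in the saline lung, or 0.79 and not called with median-shifted arrays, and differed by -0.56 from the urethane lung. Lama1, the alpha 1 chain of embryonic basement membrane, lay below the mark on all 3 arrays. Lamb2, the beta 2 chain, differed by -0.04 from the urethane lung and 0.33 from the saline lung.

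The promoter windows of Lama5 and Lamb1 are shown because these chains of one trimer were both higher in FULA 1, and that of Itga8 because it held the largest lower difference. Lama5 lies at chr2:180225810-180226109 on the minus strand, Lamb1 at chr12:31265043-31265342 on the plus strand and Itga8 at chr2:12301895-12302194 on the minus strand, in the same build and with the same capitals.
Lama5: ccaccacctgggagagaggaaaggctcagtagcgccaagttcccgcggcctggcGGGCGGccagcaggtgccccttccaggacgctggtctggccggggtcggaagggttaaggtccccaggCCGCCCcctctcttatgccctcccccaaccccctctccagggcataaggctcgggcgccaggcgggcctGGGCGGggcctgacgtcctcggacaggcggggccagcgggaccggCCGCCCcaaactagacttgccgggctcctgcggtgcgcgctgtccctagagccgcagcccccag
Lamb1: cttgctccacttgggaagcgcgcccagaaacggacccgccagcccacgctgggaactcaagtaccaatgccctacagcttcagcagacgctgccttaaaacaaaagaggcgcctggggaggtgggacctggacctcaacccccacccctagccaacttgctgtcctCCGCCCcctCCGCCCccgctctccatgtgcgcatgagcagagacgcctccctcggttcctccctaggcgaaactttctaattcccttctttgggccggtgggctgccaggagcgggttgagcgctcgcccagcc
Itga8: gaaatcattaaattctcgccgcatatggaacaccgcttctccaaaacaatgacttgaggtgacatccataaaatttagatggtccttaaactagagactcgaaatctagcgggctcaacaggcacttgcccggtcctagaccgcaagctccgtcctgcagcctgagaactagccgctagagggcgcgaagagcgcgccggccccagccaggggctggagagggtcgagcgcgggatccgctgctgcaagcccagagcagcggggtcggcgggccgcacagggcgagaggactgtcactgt
The Lama5 window holds 4 GC boxes and 24 CpG dinucleotides, the Lamb1 window 2 and 18, and the Itga8 window 0 and 23. The RefSeq table held 26 windows for 23 of the 36 chains, and the windows of Itga6, Itga7, Itgad, Itgae, Itgal, Itgb2, Itgb3, Itgb4, Lama1, Lama3, Lama4, Lamc1 and Lamc3 were not used here. A GC box was found in 12 of the 26 (46.2%). Of the chains higher in FULA 1 than in both lungs, 7 had 9 windows, of which 7 held a GC box. Their median GC content was 63.7%, against 58.8% over the 26 windows and 52.7% over all windows. Of the chains lower than in both lungs, 2 had 2 windows, of which 1 held a GC box, with a median GC content of 54.7%. An AP-1 motif was found in 3 of the 26 windows, those of Itga9, Itgax and the downstream start of Itga3. Windows of 1 gene overlap or share a locus, and a GC box is likelier in GC-rich sequence, so these counts describe the windows only.

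The proteins that work with these chains were described from 4 lists. By the same rule, 13.9% of all named genes were higher and 13.5% lower in FULA 1 than in saline lung. Against the urethane lung these shares were 13.2% and 11.6%. The lists are small, and several of their counts lie near those shares. Of 21 measured adaptors and signalling proteins, 6 were lower and 4 higher in FULA 1 than in saline lung (median -0.35), and 3 were higher and 4 lower than in the urethane lung (median -0.29). The kindlins, which switch integrins on by binding the beta chain tail, differed in direction. Fermt1, the epithelial kindlin, stood at 4.71 on FULA 1, 1.36 on urethane lung and 1.44 on saline lung, higher in FULA 1 by at least 2.26 than in the urethane lung and by at least 2.24 than in the saline lung. Fermt2, the kindlin of most other tissues, stood at 3.15 on FULA 1, 6.10 on urethane lung and 6.45 on saline lung, differences of -2.95 and -3.30. Fermt3, the blood cell kindlin, named after its value was seen, differed by -0.97 and -0.96. Vcl, the actin linker vinculin, was higher by 2.17 than in the urethane lung and by 2.05 than in the saline lung. The tensins Tns1 and Tns2, actin linkers of focal and fibrillar adhesions, were lower by 2.35 and 2.23 than in the urethane lung and by 1.97 and 2.33 than in the saline lung.

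Of the 4 hemidesmosome partners, 2 were higher and 1 lower in FULA 1 in each comparison. Dst, which encodes the plakin BPAG1, was higher in FULA 1 by 1.36 than in the urethane lung and by 1.90 than in the saline lung. The tetraspanin gene Cd151 was higher by 1.42 than in the saline lung and differed by 0.82 from the urethane lung. Plec, the keratin linker plectin, was higher by 1.04 than in the urethane lung and differed by 0.81 from the saline lung. Col17a1, the transmembrane collagen of hemidesmosomes, lay below the mark on FULA 1 and was lower by at least 0.78 than in the urethane lung and by at least 1.08 than in the saline lung. Of 12 basement membrane partners, 0 were higher and 2 lower in FULA 1 than in the urethane lung, and 1 was higher and 1 lower than in the saline lung. The higher one was Agrn, the heparan sulfate proteoglycan agrin, by 1.78, and the lower one Col4a3, a type IV collagen chain of alveolar basement membrane, by at least 1.00. Against the urethane lung the lower pair was Nid1, the laminin-binding nidogen, at -1.63, and Col4a3, lower by at least 1.01.

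Of 16 measured ligands other than laminin, 5 were higher and 3 lower in FULA 1 than in the urethane lung, and 4 were higher and 2 lower than in the saline lung. Fn1 led in both, higher by 3.94 than in the urethane lung and by 3.70 than in the saline lung. Cdh1, E-cadherin, which the alpha E beta 7 integrin binds, followed against each lung at 1.56 and 2.06. The lowest were Icam2 and Vwf, genes of endothelium, both below the mark on FULA 1. Icam2 was lower by at least 2.39 than in the urethane lung and 1.68 than in the saline lung, and Vwf by at least 2.16 and 1.94. Npnt, the nephronectin gene and thus the ligand of alpha 8, was named after its value was seen. It stood at 7.78 on FULA 1, 6.64 on urethane lung and 6.36 on saline lung, higher in FULA 1 by 1.15 and 1.42.

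**Figure D3:**
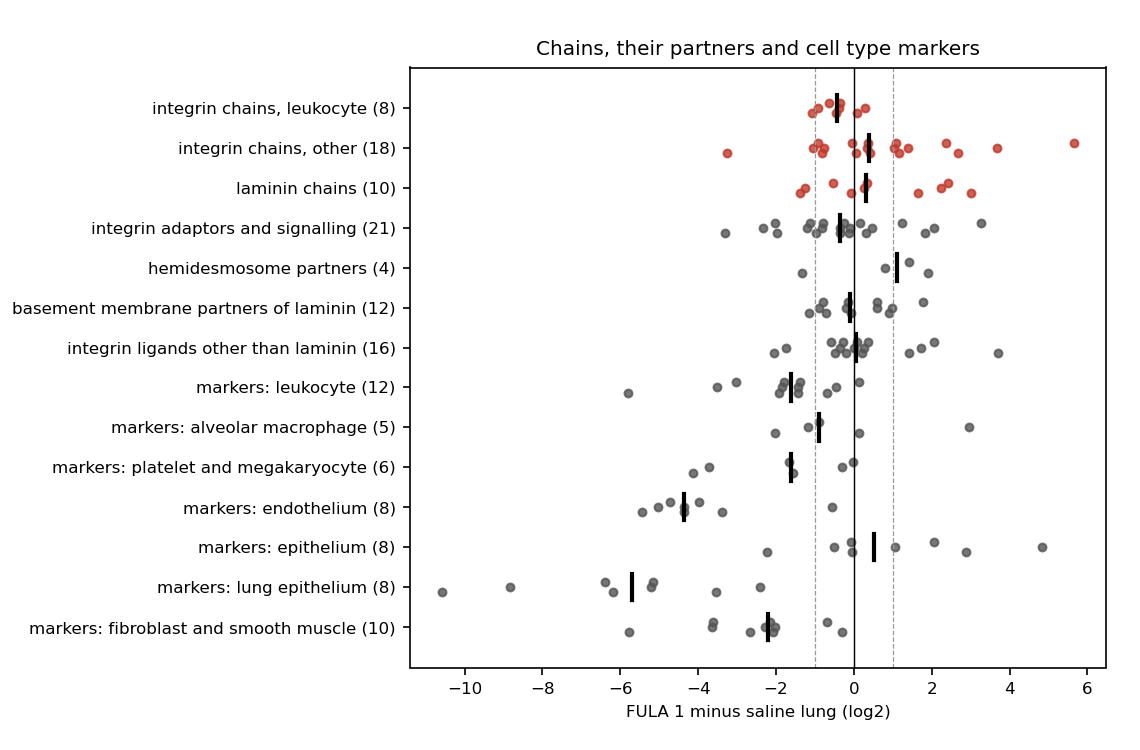
Difference of each gene (x axis, log2, FULA 1 minus saline lung) in the chains (red) and in lists of partners and cell type markers (grey), with the number measured in parentheses, a black bar at each median and dashed lines at 2-fold. Endothelial markers centre at -4.37 and leukocyte markers at -1.62 after quantile normalization, while laminin chains centre at 0.30 and reach both sides.

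The urethane lung was close to the saline lung in most chains. It was higher in 4 of 36 (11.1%), Itga9, Itgb1, Itgb5 and Lama4, and lower in 0, with 27 chains past the floor. Of all named genes 1.84% were higher and 0.739% lower by the same rule, and of the 12519 genes past the floor 3.27% and 1.31%. The median difference of the chains was 0.26 (log2, urethane minus saline), against -0.06 for all named genes. Above 0 lay 23 of 36 chains and 44.4% of all named genes. When the arrays were only median-shifted, or after lowess, 1 chain was higher, against 0.969% and 1.10% of all named genes.

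Itgb1 was higher by 1.07 in the urethane lung, with a range of 1.00 to 1.17 over the other scalings, the lowest of which, with the FULA 1 quantiles as target, fell just short of the threshold. Its deposited values were 4.28 on urethane lung and 2.13 on saline lung, a gap of 2.15 where the median of all genes was shifted by 1.09. Itgb5, a vitronectin receptor chain, was higher by 1.05, with values of 4.12 on urethane lung and 3.06 on saline lung, and a range of 0.93 to 1.43. Both lungs lay above the mark for these chains. For Itga9 and Lama4 the saline value lay below it, and they were higher by at least 0.49 and 0.43 in the urethane lung. The Lama4 urethane value is the shared one.

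Other chains of the lungs lay short of the threshold. Itgax, below the mark on saline lung, was at least 0.52 higher in the urethane lung. Lamb1 differed by 0.82 and Itgb4 by 0.64, while Lamc3 lay at the other end at -0.84. The laminin receptor chains Itga3 and Itga6 differed by -0.08 and -0.06, signs that turned after lowess, and Itga2 by at least 0.03. Leukocyte markers had a summed linear level of 341 on urethane lung and 419 on saline lung, with 9 of 12 below 0. Platelet and megakaryocyte markers summed to 504 on urethane lung and 767 on saline lung, with 5 of 6 below 0 and Pf4 lower by 1.15. Of all named genes, 44.4% lay above 0 between the lungs. Itgb3, the beta chain of the platelet fibrinogen receptor, differed by 0.28. Ppbp, a platelet chemokine gene, stood at 7.80 on FULA 1, 8.78 on urethane lung and 9.35 on saline lung, while Pf4 and Gp9 lay below the mark on FULA 1. The part of these cells in the differences between the lungs was not tested.

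**Figure D4:**
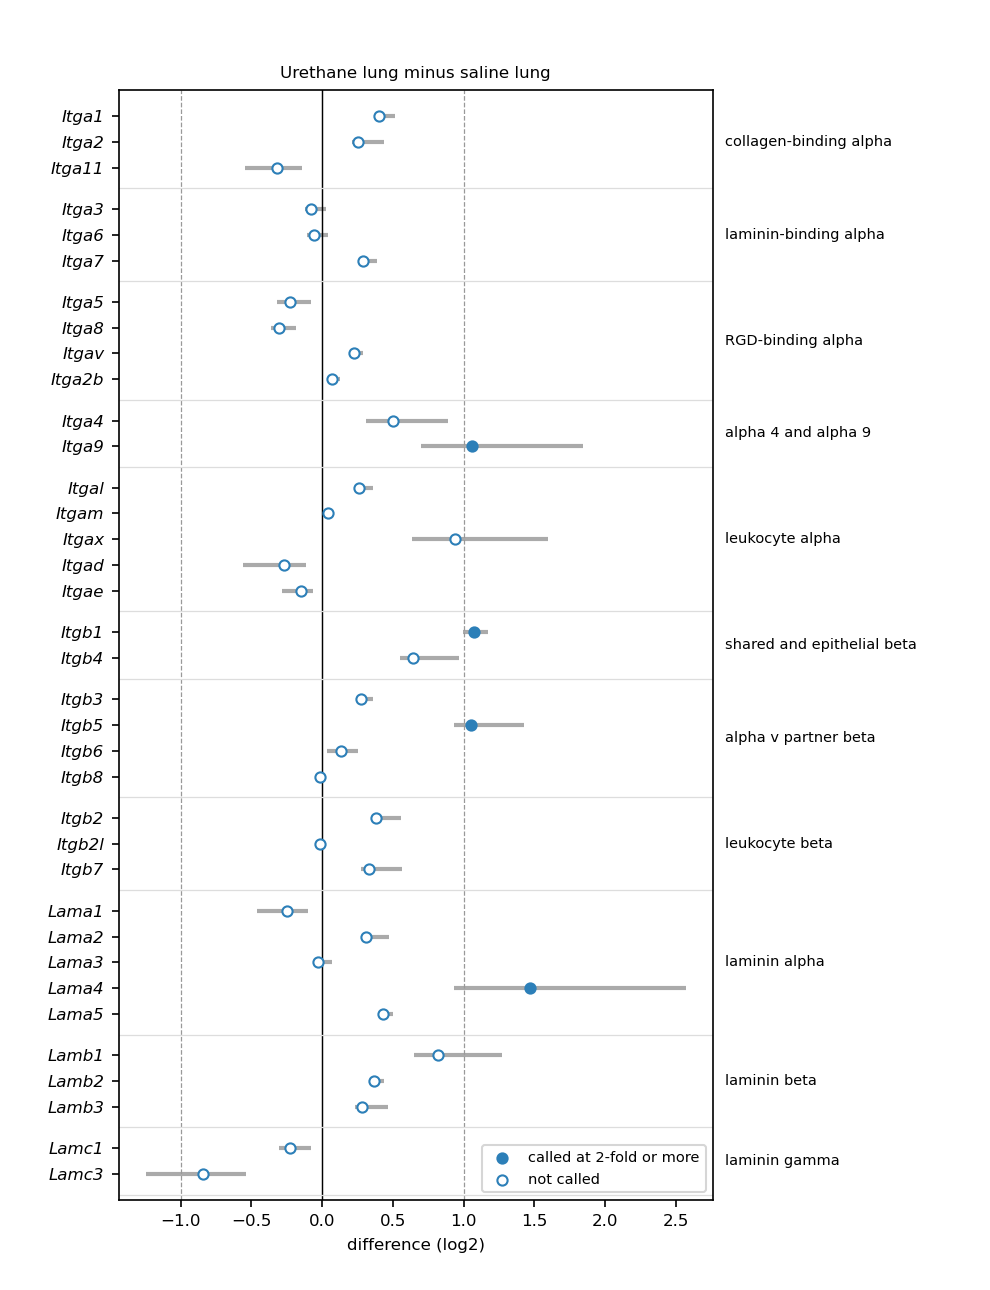
Difference of each chain (x axis, log2) for urethane lung minus saline lung, with filled points called at 2-fold or more, open points not called, dashed lines at 2-fold, and grey bars over the other scalings except the deposited values. Filled are Itga9, Itgb1, Itgb5 and Lama4, and the bar of Itgb1 is the narrowest of these.

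The partner lists of the lungs held 1 called gene. Of all named genes 1.84% were higher and 0.739% lower in the urethane lung, so so few calls lie near the background. Of 21 adaptors, 4 hemidesmosome partners and 12 basement membrane partners, 0 passed the threshold in either direction. Of 16 ligands, Thbs1, the matricellular protein thrombospondin 1, was lower by 1.08 in the urethane lung. The adaptors reached 0.98 for Ptk2b, the focal adhesion kinase relative PYK2, and -0.65 for Src. Of the basement membrane partners, 10 of 12 lay above 0, against 44.4% of all named genes. Their median was 0.27, led by Col4a2 at 0.95 and Agrn at 0.81. Icam1, the ligand of LFA-1, differed by 0.93.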

How the data were processed

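RNA was measured on 3 mouse whole-transcript arrays. The values are log2 signals of 41345 probe sets, deposited after RMA (background correction, normalization and one summary per probe set), per the submitters' processing notes; GeneSpring GX 12.5 is named in the series' design text. The arrays normalized together, the annotation and the build are not given in the sources. All 3 columns were used.

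The deposited medians were 4.96 on FULA 1, 1.22 on urethane lung and 0.08 on saline lung, so the arrays were quantile-normalized to the mean of the sorted columns, ties taking their mean rank (Python 3.11.15, numpy 2.4.6, pandas 2.3.3, scipy 1.17.1, statsmodels 0.14.6). Probe sets with 1 annotated symbol (23521) named 22180 genes; symbols were updated by Entrez identifier in RefSeq's GRCm38.p6 table for 23328 of them, and a gene's value is the mean of its probe sets. A summed linear level adds 2 to the power of each normalized value. The steps were tested on simulated data.

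The chains, lists and rules were chosen with earlier results of these data known. Every chain could be named; of each list, the 2 highest and 2 lowest genes in each comparison, plus Ptprc, Pecam1, Epcam, Krt8, Krt18, Sftpc, Ager, Scgb1a1, Pf4 and Col1a1. With 1 array per group the number of arrays limits the precision.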

Additional observations from a re-analysis of the deposited data

How the results depend on the processing

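With the values as deposited, whose median over all genes lies 4.80 higher on FULA 1 than on saline lung, 3.69 higher than on urethane lung and 1.09 higher on urethane than on saline lung, the higher counts became 36, 35 and 16 (FULA 1 minus saline, FULA 1 minus urethane, urethane minus saline) and the lower counts 0 in all 3. The lower calls then changed sign: against saline Itga11 stood at 3.82, Itga8 at 1.28, Itgal at 4.27, Lama2 at 3.64 and Lamc3 at 4.10; against urethane Itga1 at 3.39, Itga7 at 3.86, Itga8 at 0.32, Itgal at 2.79, Itgax at 2.24, Itgb2 at 2.75, Lama2 at 2.17 and Lama4 at 2.51. After the columns were shifted to a common median, all of these but Itga7 against urethane lay below 0. With median-shifted arrays, lower counts were 3 against saline and 4 against urethane, higher counts 14 against urethane and 1 between the lungs, and Itga7 turned to 0.12. That setting called 31.8% of all named genes higher in FULA 1 than in saline lung and 32.3% higher than in urethane lung, where 14 of 36 chains were higher; lowess called 8.90% and 9.37%. Against saline, 15 chains were higher with the shift and 9 after lowess. The quantiles of FULA 1 gave 8 chains lower against saline and 1 lower between the lungs; lowess gave 1 higher between the lungs. At 1.5-fold, 8 were lower against saline, and 7 higher and 1 lower between the lungs. At 4-fold, 7 were higher and 1 lower against saline, 5 and 1 against urethane, and 0 higher between the lungs. A floor at the 75th percentile left 1 lower against saline, 3 lower against urethane and 2 higher between the lungs. The background mark in place of lower values left 3 lower against saline and 2 higher between the lungs. Without a floor every count was the same. The cause of each change was not tested. No paired analysis was possible because each group has 1 array.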

Other observations

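Genes whose symbols begin like those of the chains but encode other proteins were not called in any comparison. Itgb3bp, a centromere and nuclear receptor coregulator gene, stood at 2.39 on FULA 1, 2.37 on urethane lung and 2.38 on saline lung. Itgb1bp1, an inhibitor of beta 1 activation, stood at 2.39 on FULA 1, 2.03 on urethane lung and 2.25 on saline lung. Itgbl1, a secreted protein with integrin-like repeats, lay below the background mark on all 3 arrays.

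Endothelial and lung epithelial lists gave the widest gaps of the lists measured between FULA 1 and the lungs after quantile normalization. Their medians were -4.37 and -5.69 for FULA 1 minus saline lung. As deposited they were 0.72 and -0.67, where the median of all genes was 4.80. The endothelial markers Erg and Emcn each held one deposited value on all 3 arrays, 5.23 and 3.96, so their differences exist only after normalization. Pecam1, an endothelial adhesion molecule, stood at 2.17 on FULA 1, 6.46 on urethane lung and 6.53 on saline lung. Col1a1, a chain of fibrillar type I collagen, stood at 2.67 on FULA 1, 6.98 on urethane lung and 6.27 on saline lung. Of 5 measured alveolar macrophage markers, Marco and Siglecf lay below the mark on FULA 1, and Siglecf also on urethane lung. Chil3 differed by -1.60 from the urethane lung and -2.03 from the saline lung, and Cd68 by -0.10 and 0.13. Mrc1, the mannose receptor gene, stood at 5.24 on FULA 1, 2.97 on urethane lung and 2.28 on saline lung, the last below the mark.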
